A study of Homo sapiens with 8 samples.

Results

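Class I antigen presentation was followed through 9 genes on 14 array probes: the heavy chains HLA-B, HLA-C, HLA-E and HLA-F, the light chain B2M, the peptide pump subunits TAP1 and TAP2, the pump's link to the class I molecule TAPBP, and the proteasome subunit PSMB9. The probes were all those whose RefSeq accession belongs to one of these genes, out of 50599 probes on the array and of 20503 genes that could be named. Within these genes no measured value entered the choice of the 14 probes. The genes themselves were chosen with earlier results of these data known, and in the gene counts each was represented by its brightest probe.

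RNA came from 2 epithelial ovarian cancer lines, MDAH (MDAH-2774) and SKOV3, in 4 groups of 2 arrays. In each line 2 arrays held control cells that were not silenced, and 2 held cells transduced with an shRNA against SFPQ, a nuclear RNA-binding protein with roles in splicing. Each silenced array carried a different shRNA, sh-SFPQ#2 or sh-SFPQ#3, so the spread of a silenced group includes any difference between the shRNAs. By the sample labels both controls of a line carried the control shRNA, but by the study's methods one of them was parental, so they are called controls here. Nothing states whether the 2 controls of a line were separate cultures, and the p-values measure only the spread between these arrays. All 8 arrays shared 1 slide and 1 scan, with each line on its own row and its controls first, so position and group cannot be told apart.

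Values are log2 signals after subtraction of each array's 75th percentile, a level that corresponded to a signal of 244 on the MDAH sh-SFPQ#3 array and of 387 to 496 on the others. Between 47.7% and 57.0% of all probes were well above background, and no spot was saturated. SFPQ itself read 3.64 and 3.91 in the MDAH controls, 2.45 and 2.10 after silencing, 4.84 and 4.66 in the SKOV3 controls, and 3.01 and 2.48 after silencing there. It was lower in both silenced samples of each line, with log2 fold changes in MDAH cells of -1.50 (adjusted p = 0.0331 by limma) and in SKOV3 cells of -2.01 (adjusted p = 0.0304), each with a standard error of 0.23. EPCAM, KRT8, KRT18, KRT19 and PAX8, which mark epithelial and Müllerian cells, were well above background on all 8 arrays. CDH1 was not so on the SKOV3 controls, and WT1 was not so on any SKOV3 array. Of 10 markers of leukocytes, fibroblasts and endothelium, CD3E and PDGFRB were not well above background on any array, whereas PTPRC, CD14 and COL1A1 were on all 8. The summed signal of these 10 markers was 1.96 to 2.10 times the 75th percentile in MDAH controls and 2.56 to 3.22 in silenced MDAH cells, against 0.903 to 1.15 and 1.08 to 1.19 in SKOV3 cells. Of these markers COL1A1, a collagen of fibroblasts, passed in the average of both lines (log2 fold change 1.18, adjusted p = 0.0296 from limma), and its part in the results was not tested. Of the 7 markers tested, 3 were higher and 4 lower in MDAH cells, and 2 higher and 5 lower in SKOV3 cells. THY1, also of fibroblasts, read -2.20 and -2.76 in SKOV3 controls, then -2.89 and -3.79, and was not well above background in MDAH cells. The 8 epithelial and ovarian markers summed to between 182 and 458 times that percentile. MUC16, the CA-125 antigen, was well above background only on the silenced SKOV3 arrays, at least 2.59-fold over the SKOV3 controls.

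Class I molecules show peptides from inside the cell to CD8 T cells. Proteasomes cut proteins into peptides, and interferon exchanges some catalytic subunits, such as PSMB9 (LMP2), to form the immunoproteasome. The pump of TAP1 and TAP2 moves peptides into the endoplasmic reticulum, where tapasin (TAPBP) holds the empty heavy chain with its light chain B2M near the pump until a peptide binds. Interferons raise most of these genes through STAT and IRF factors, and NLRC5 drives class I promoters. Tumours often lower parts of this pathway.

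RefSeq promoter windows (GRCh38.p14, 300 bases: 250 before and 50 after the start) were found for 8 of the 9 genes; HLA-E was not matched. Both strands were searched for the core of the interferon-stimulated response element, for an NF-kappaB site, for a gamma-activated sequence (TTCNNNGAA) and an inverted CCAAT box (ATTGG). The interferon core, read for example as GAAAGTGAAA in TAPBP and GAAAGCGAAA in TAP2, was found in windows of 5 genes, HLA-F, B2M, TAP1, TAP2 and TAPBP, and in 3.57% of 35116 windows of all genes. The NF-kappaB letters were found as GGGGATTCCC in the HLA-B window and in 2.17% of all windows, and the gamma-activated sequence in a second TAP1 window and in 7.66% of all. The CCAAT letters were found in 6 genes, HLA-B, HLA-C, HLA-F, B2M, TAP1 and PSMB9, and in 34.6% of all windows. The TAP1 and PSMB9 matches are the same site, which lies in the 13 bases that their windows share. A match is a run of letters and does not show that a factor binds there.

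The windows of TAP1 and HLA-F, which passed the test in the average of both lines, of PSMB9, which starts next to TAP1, of B2M, the gene that differed most between the lines, and of HLA-B, whose probes disagreed, are shown 5′ to 3′ on the strand of the gene. Capitals mark the interferon core or, in HLA-B, the NF-kappaB letters. In TAP1 and B2M 2 matches overlap, so that their capitals form 1 run.
TAP1 promoter, chr6:32853655-32853954, minus strand: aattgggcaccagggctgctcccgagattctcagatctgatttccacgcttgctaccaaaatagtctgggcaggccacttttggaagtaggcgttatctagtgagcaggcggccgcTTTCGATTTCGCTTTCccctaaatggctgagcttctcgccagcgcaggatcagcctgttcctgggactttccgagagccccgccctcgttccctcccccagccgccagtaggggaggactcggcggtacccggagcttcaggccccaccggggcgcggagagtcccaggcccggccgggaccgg
PSMB9 promoter, chr6:32853942-32854241, plus strand: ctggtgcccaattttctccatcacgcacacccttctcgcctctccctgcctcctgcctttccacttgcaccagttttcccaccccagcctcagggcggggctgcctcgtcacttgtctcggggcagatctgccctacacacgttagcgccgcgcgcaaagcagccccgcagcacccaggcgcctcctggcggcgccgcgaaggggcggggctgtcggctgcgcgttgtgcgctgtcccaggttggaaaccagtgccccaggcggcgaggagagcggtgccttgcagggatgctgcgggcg
HLA-F promoter, chr6:29723184-29723483, plus strand: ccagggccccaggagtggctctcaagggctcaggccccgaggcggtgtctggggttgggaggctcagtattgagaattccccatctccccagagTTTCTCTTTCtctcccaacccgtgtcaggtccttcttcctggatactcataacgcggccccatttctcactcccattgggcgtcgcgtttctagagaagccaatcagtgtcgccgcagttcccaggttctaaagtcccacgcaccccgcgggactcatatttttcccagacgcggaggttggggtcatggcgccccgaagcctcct
B2M promoter, chr15:44711267-44711566, plus strand: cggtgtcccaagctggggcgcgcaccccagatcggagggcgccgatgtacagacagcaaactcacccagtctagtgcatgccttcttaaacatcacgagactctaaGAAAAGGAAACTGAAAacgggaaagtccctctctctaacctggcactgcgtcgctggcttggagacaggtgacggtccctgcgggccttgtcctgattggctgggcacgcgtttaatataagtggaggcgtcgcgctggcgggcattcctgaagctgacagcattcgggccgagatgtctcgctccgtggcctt
HLA-B promoter, chr6:31357130-31357429, minus strand: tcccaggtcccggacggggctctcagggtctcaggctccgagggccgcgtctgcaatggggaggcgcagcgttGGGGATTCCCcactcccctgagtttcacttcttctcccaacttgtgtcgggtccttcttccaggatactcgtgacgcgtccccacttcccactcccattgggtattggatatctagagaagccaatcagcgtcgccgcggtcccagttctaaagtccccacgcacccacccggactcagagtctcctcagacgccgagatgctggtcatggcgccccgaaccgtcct
The TAP1 and PSMB9 windows lie head to head on opposite strands and share 13 bases. The PSMB9 window held neither marked motif.

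The signals of HLA-B, HLA-C and HLA-E in control cells did not differ between the lines by this test, whereas 6 genes differed. B2M and PSMB9 stood at opposite ends. B2M, the light chain of class I molecules, read 2.74 and 2.49 in MDAH controls and 6.85 and 6.85 in SKOV3 controls on a probe printed 10 times per array. The SKOV3 signal was 18.9-fold that of MDAH (log2 difference 4.24, standard error 0.18, adjusted p = 7.84e-06 from limma), a larger excess than in 97.8% of the genes tested. PSMB9 read 4.87 and 5.13 in MDAH controls and 2.78 and 3.20 in SKOV3 controls, a difference of -2.01 (standard error 0.21, adjusted p = 0.000327). TAP1 also had less signal in SKOV3 controls, by -1.65 (adjusted p = 0.000324), and so did TAPBP, by -1.01 (adjusted p = 0.0025). HLA-F and TAP2 had more, by 0.53 (adjusted p = 0.0271) and 0.58 (adjusted p = 0.0265). So 3 of the 9 genes passed as higher and 3 as lower in SKOV3 controls, beside 30.6% and 26.8% of all 15552 genes tested. The differences of HLA-B (-0.15, 95% interval -0.54 to 0.24), HLA-C (-0.09, -0.43 to 0.26) and HLA-E (-0.06, -0.46 to 0.34) did not pass, and all of them were above 0 when arrays were centred on their medians. With 1 control array of either line left out, 4 genes passed.

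**Figure D1:**
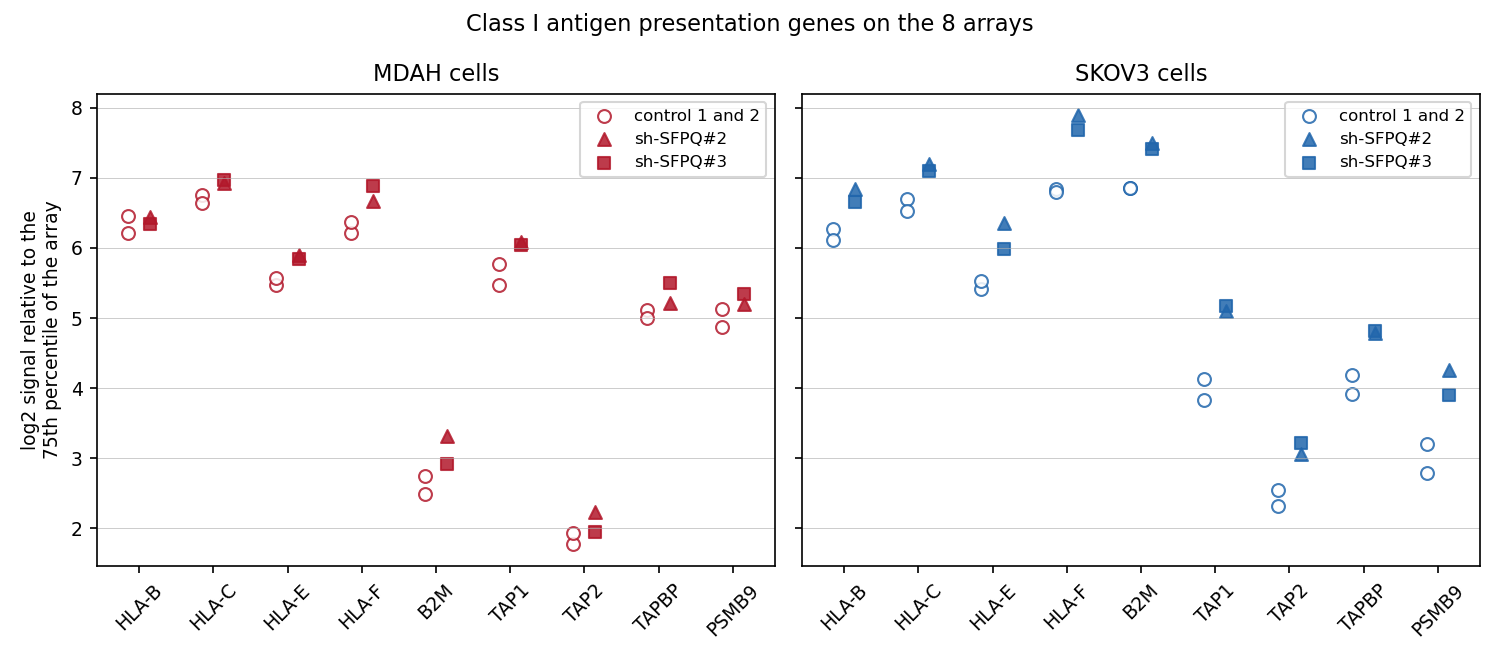
Log2 signal above the array's 75th percentile (vertical axis) of the 9 genes on the 4 MDAH arrays (left) and the 4 SKOV3 arrays (right), with open circles for the 2 controls, a triangle for sh-SFPQ#2 and a square for sh-SFPQ#3. Both silenced arrays lie above both controls for all 9 genes in SKOV3 cells and for all but HLA-B in MDAH cells, and B2M is far higher in SKOV3 cells. Heights of different genes come from different probes and are not comparable.

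After SFPQ silencing all 9 genes had more signal on average in each line, as 59.8% of all genes did in MDAH and 46.2% in SKOV3 cells, and in SKOV3 cells the differences ran from 0.54 to 1.16 on the log2 scale. TAP1 alone passed the test there, and TAP1 and HLA-F passed in the average of both lines. In MDAH cells the differences ran from 0.06 to 0.50 and none passed. With quantile normalization, normexp, the deposited table or the mean of a gene's probes, HLA-B was below 0 in MDAH cells.

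The largest SKOV3 differences were those of TAP1, PSMB9 and HLA-F. TAP1, the pump subunit that pairs with TAP2, read 3.83 and 4.13 in SKOV3 controls, then 5.10 (sh-SFPQ#2) and 5.17 (sh-SFPQ#3). The gap between the groups was wider than the spread inside either. The difference was 1.16 (standard error 0.18, 2.23-fold, adjusted p = 0.0454 from limma), above 97.1% of all genes tested. In MDAH cells TAP1 read 5.47 and 5.77 in controls, 6.08 and 6.04 after silencing, a difference of 0.44 (standard error 0.18, adjusted p = 0.205). The groups did not overlap, with 0.30 between the 2 controls. The average over both lines was 0.80 (standard error 0.12, adjusted p = 0.0236). The SKOV3 call of TAP1 was lost with any 1 of the 8 arrays left out, with an adjusted p of up to 0.178. Without 1 array, the average call was lost for TAP1 and HLA-F with either control of either line or MDAH sh-SFPQ#3 left out, and for TAP1 also without SKOV3 sh-SFPQ#3 (adjusted p of up to 0.12 for TAP1 and 0.127 for HLA-F).

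TAP2 was read by 2 probes, of which A_23_P368067 was not well above background on any array. The other read 2.31 and 2.54 in SKOV3 controls and 3.06 and 3.22 after silencing. Its difference of 0.71 (standard error 0.17) did not pass (adjusted p = 0.115 from limma). In MDAH cells it read 1.77 and 1.93 in controls, then 2.23 (sh-SFPQ#2) and 1.95 (sh-SFPQ#3), so that the lower silenced array barely cleared the higher control. The average over the lines was 0.47 (adjusted p = 0.0715).

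TAPBP, tapasin, was read by 3 probes. The brightest read 3.92 and 4.19 in SKOV3 controls and 4.78 and 4.81 after silencing, which differed by 0.74 (adjusted p = 0.104 from limma, standard error 0.17). In MDAH cells it read 5.12 and 5.0, then 5.22 and 5.50, a difference of 0.30 (adjusted p = 0.338). The groups were apart in both lines. Probe A_23_P259580 gave 0.74 in SKOV3 and 0.14 in MDAH cells, and probe A_33_P3325914 gave 0.40 and -0.05, so the MDAH direction depended on the probe. All 3 probes were lower in SKOV3 controls than in MDAH controls, by -1.01, -1.42 and -1.41.

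PSMB9, the immunoproteasome subunit, read 2.78 and 3.20 in SKOV3 controls, then 4.26 (sh-SFPQ#2) and 3.91 (sh-SFPQ#3). The difference was 1.09 (standard error 0.21, 2.13-fold, adjusted p = 0.0789 from limma). In MDAH cells the values were 4.87 and 5.13, then 5.20 and 5.34. There the difference of 0.27 was of the size of the gap between the 2 controls, 0.26. The silenced SKOV3 cells stayed below all MDAH arrays for PSMB9, TAP1 and TAPBP.

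B2M, the shared light chain, read 6.85 and 6.85 in SKOV3 controls, then 7.50 (sh-SFPQ#2) and 7.41 (sh-SFPQ#3). In MDAH cells it read 2.74 and 2.49, then 3.31 and 2.92. It was the gene whose differences in the lines were nearest to each other, 0.60 in SKOV3 and 0.50 in MDAH cells (adjusted p = 0.159 and 0.176 from limma). The difference between them was 0.10, with a 95% interval of -0.52 to 0.72.

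Among the heavy chains HLA-F, a class Ib molecule with few alleles, had the largest differences. It read 6.85 and 6.80 in SKOV3 controls, then 7.90 (sh-SFPQ#2) and 7.69 (sh-SFPQ#3), and in MDAH cells 6.21 and 6.37, then 6.68 and 6.89. Silenced and control arrays were apart in both lines. The differences were 0.97 in SKOV3 (standard error 0.16, adjusted p = 0.057 from limma) and 0.49 in MDAH cells (adjusted p = 0.147), and the average of 0.73 passed (standard error 0.11, adjusted p = 0.0236). The second HLA-F probe gave 1.08 in SKOV3 and 0.52 in MDAH cells, with an average of 0.80 that also passed (adjusted p = 0.0208).

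HLA-E, the class Ib molecule that NK cells read through CD94/NKG2A, read 5.41 and 5.52 in SKOV3 controls and 6.35 and 5.99 after silencing, and in MDAH cells 5.48 and 5.58, then 5.90 and 5.85. The groups were apart in both lines, with differences of 0.70 and 0.35. The average of 0.53 lay just short of the threshold (standard error 0.12, adjusted p = 0.0538 from limma). HLA-C, a classical heavy chain and ligand of KIR receptors, read 6.69 and 6.54 in SKOV3 controls and 7.21 and 7.10 after silencing, and in MDAH cells 6.76 and 6.64, then 6.93 and 6.97. Its differences were 0.54 and 0.25, with an average of 0.40 (adjusted p = 0.0699).

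HLA-B, the most polymorphic classical heavy chain, was the exception in MDAH cells and was read by probes that disagreed. The brighter one, A_33_P3424800, read 6.22 and 6.46 in MDAH controls, 6.45 and 6.34 after silencing, and in SKOV3 cells 6.27 and 6.11, then 6.84 and 6.66. The MDAH groups overlapped (difference 0.06, 95% interval -0.33 to 0.44), and the SKOV3 groups did not (0.56, adjusted p = 0.149 from limma). The other probe, A_33_P3379947, read 6.07 and 6.38 in MDAH controls, then 5.17 (sh-SFPQ#2) and 6.64 (sh-SFPQ#3). In SKOV3 cells it read 6.09 and 5.92, then 5.32 with sh-SFPQ#2 and 6.87 with sh-SFPQ#3. In both lines sh-SFPQ#2 lay below both controls and sh-SFPQ#3 above them. The gap between the shRNAs was 1.47 in MDAH and 1.55 in SKOV3 cells, and 13 of 16373 probes well above background on all arrays (0.0794%) had gaps of at least 1.47 in that direction in both lines. On the brighter probe the same gap was -0.10 and -0.18. What the probes read differently was not tested.

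**Figure D2:**
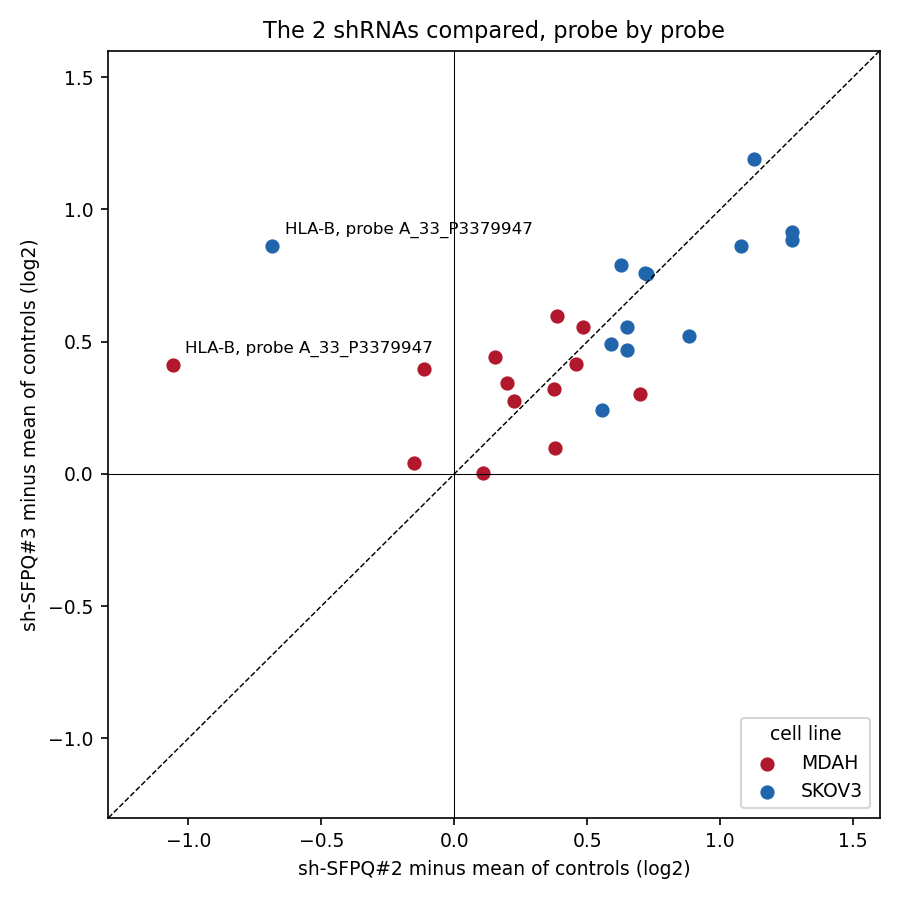
Change with sh-SFPQ#2 (horizontal axis) against the change with sh-SFPQ#3 (vertical axis), each as log2 signal minus the mean of the line's 2 controls, for the 13 probes of the class I genes that were well above background on all arrays; red points are MDAH and blue points SKOV3 cells, and the dashed line marks equal changes. All SKOV3 points but the labelled HLA-B probe lie above 0 on both axes, whereas that probe is below 0 with sh-SFPQ#2 and above 0 with sh-SFPQ#3 in both lines.

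Counted over the genes with their brightest probes, both silenced arrays lay above both controls for 8 of 9 genes in MDAH cells, where this held for 35.6% of all genes tested, and for 9 of 9 in SKOV3 cells, where it held for 26% of all. It held in both lines for 8 of 9 genes, against 12.5% of all. The genes that passed as higher were 0 of 9 in MDAH cells (0.424% of all genes), 1 of 9 in SKOV3 cells (0.418%) and 2 of 9 in the average of the lines (1.97%). With limma's unadjusted p under 0.05 the counts were 3, 9 and 9 (13.1%, 9.92% and 14.3% of all genes). With the methods' t-test, unadjusted, they were 1 in MDAH and 7 in SKOV3 cells. There 12.6% and 11.3% of all genes reached that mark in either direction, and none passed after adjustment. The median over the 9 genes was 0.30 in MDAH and 0.71 in SKOV3 cells, beside 0.10 and -0.04 over all genes. The 9 genes share controls and arrays, and are not independent replicates.

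All 9 genes had a larger difference in SKOV3 than in MDAH cells, as did 40.8% of all genes, yet the difference between the lines passed for 0 of 9 (0.0579% of all genes passed as higher in SKOV3), with 2 of 9 at limma's unadjusted p under 0.05 (6.71% of all). Those were PSMB9 (0.82, 95% interval 0.10 to 1.54, adjusted p = 0.305) and TAP1 (0.72, 0.13 to 1.31, adjusted p = 0.289). For B2M the sign turned with median centring.

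**Figure D3:**
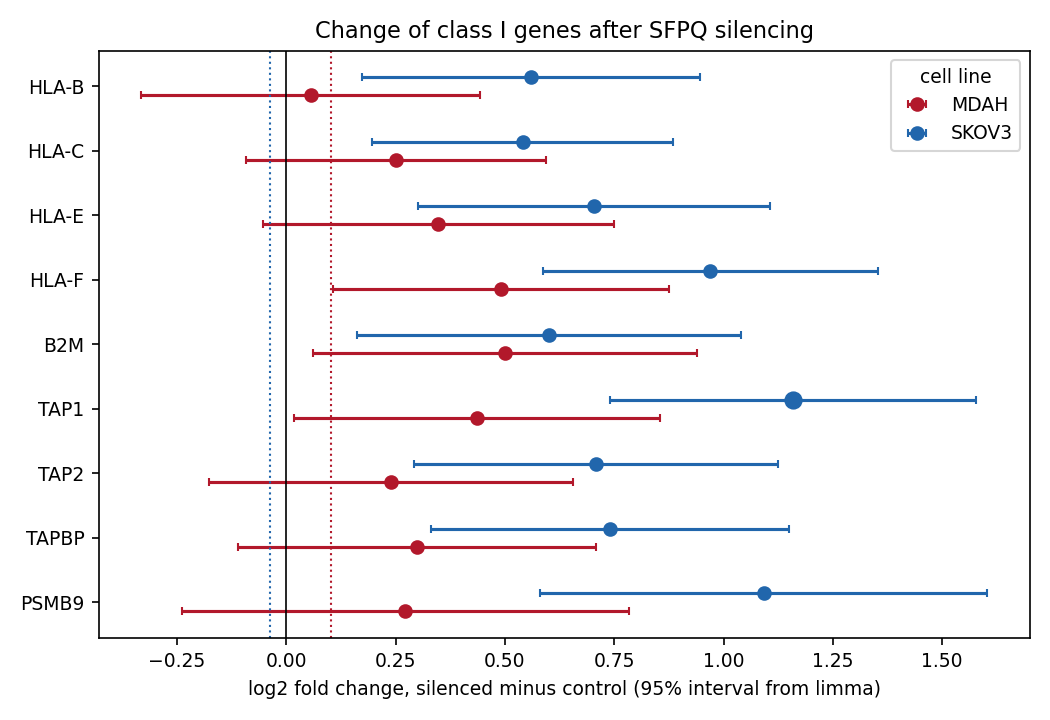
Log2 fold change of silenced over control cells (horizontal axis) for each of the 9 genes, with 95% intervals from limma, in MDAH (red) and SKOV3 cells (blue); the larger point is the change that passed an adjusted p of 0.05, and dotted lines are the medians of all genes tested. All SKOV3 intervals lie above 0, while in MDAH cells only those of HLA-F, B2M and TAP1 do.

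The related heavy chains can take up each other's labelled RNA, since class I genes and their pseudogenes are near-identical over long stretches, and the alleles of these lines may not match the probes. HLA-G, a class Ib gene, read 7.64 and 7.80 in MDAH controls, 7.91 and 8.20 after silencing, and in SKOV3 cells 7.78 and 7.82, then 8.76 and 8.52. It rose in the average of the lines by 0.59 (standard error 0.12, adjusted p = 0.0449 from limma). The pseudogene HLA-J, read by a probe printed 10 times, gave 0.38 in MDAH and 1.14 in SKOV3 cells, and the latter passed (adjusted p = 0.0443). Which copies each probe read was not tested.

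Of the other class I heavy chains and class I-like molecules 10 genes were tested; 5 were higher in MDAH and 7 in SKOV3 cells, with medians of -0.06 and 0.25, and HLA-G alone passed in the average of the lines. Without ULBP3, the gene of these that was not well above background on all 8 arrays, the medians were 0.06 and 0.32. The stress ligand ULBP1, an NKG2D ligand, was the lowest of all listed genes in SKOV3 controls relative to MDAH controls (-4.87, adjusted p = 6.17e-05).

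Of 8 chaperones and editors of the loading complex 3 were higher in MDAH and 4 in SKOV3 cells, with medians of -0.03 and 0.01. ERAP1, the aminopeptidase that trims peptides in the endoplasmic reticulum, read 1.65 and 1.73 in MDAH controls, 2.14 and 2.25 after silencing, and in SKOV3 cells -0.86 and -0.42, then 0.17 and 0.50. It rose in the average by 0.74 (adjusted p = 0.0373 from limma). Its relative ERAP2 was at 0.30 and 0.06 (adjusted p = 0.502 in the average).

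Of 6 other genes of the immunoproteasome and its activator none passed after silencing, by limma with unadjusted p under 0.05 for 1 in the average; their medians were 0.15 in MDAH and -0.10 in SKOV3 cells. PSMB8, the catalytic partner encoded beside TAP1, read 2.05 and 2.14 in SKOV3 controls and 2.30 and 2.48 after silencing (0.30, adjusted p = 0.458), and PSMB10 was at -0.03 there. The activator subunit PSME1 was at 0.47 in MDAH and 0.17 in SKOV3 cells, and the differences between these genes and PSMB9 were not tested. Of the 3 constitutive catalytic subunits all were lower in SKOV3 cells, with a median of -0.31, and all were higher in MDAH cells, with a median of 0.11. POMP, the proteasome assembly chaperone, was among the listed genes furthest above MDAH in SKOV3 controls (2.64, adjusted p = 0.000278).

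Of 7 cytosolic peptidases, which trim or destroy peptides before the pump, 3 were higher in MDAH and 2 in SKOV3 cells. Their medians were -0.001 and -0.20. TPP2 rose in MDAH cells from 1.78 and 1.73 to 2.53 and 2.53 (0.78, adjusted p = 0.0439 from limma), and in SKOV3 cells was at -0.20 (adjusted p = 0.43). NRDC, nardilysin, fell in the average of the lines by 0.63 on the log2 scale (adjusted p = 0.0495).

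Among 15 regulators of class I transcription IRF9, a DNA-binding factor of the type I interferon response, was the gene that passed. It read 1.24 and 1.36 in MDAH controls, 1.93 and 2.23 after silencing, and in SKOV3 cells -0.51 and -0.27, then 0.73 and 0.45, an average of 0.88 (adjusted p = 0.022 from limma). IRF1 had differences of 0.40 in MDAH and 0.39 in SKOV3 cells, and NLRC5 of -0.02 and 0.20. Neither passed. Of 8 interferon receptors, their kinases and the pathway's inhibitor SOCS1 none passed, with medians of 0.40 and 0.24. In the average 4 of them, SOCS1 included, were higher at limma's unadjusted p under 0.05, beside 14.3% of all genes.

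Of 12 tested interferon-stimulated reference genes 7 were well above background on all 8 arrays. All 7 were higher after silencing in both lines, with medians of 0.72 in MDAH and 0.97 in SKOV3 cells. None of the 12 passed in limma, and of the 7 an unadjusted p under 0.05 was reached by 2 in MDAH and 3 in SKOV3 cells, beside 13.1% and 9.92% of all genes. The controls of a line stood apart for these genes. Control 2 lay above control 1 for all 7 in both lines, by a median of 1.07 in MDAH and 0.61 in SKOV3 cells, and by up to 1.73 and 3.1 for IFI6. IFI6 read 2.64 and 4.37 in MDAH controls and 3.78 and 3.84 after silencing, and in SKOV3 cells 0.59 and 3.69, then 5.60 and 3.44, so its groups overlapped in both lines. Both silenced arrays lay above both controls for 4 of the 7 in MDAH and 6 in SKOV3 cells. Among the 9 class I genes control 2 was above control 1 for 6 in each line, by at most 0.30 in MDAH and 0.42 in SKOV3 cells, and its part in their changes was not tested. IFI44L and CTSS (cathepsin S, of the class II list), whose fitted values for SKOV3 over MDAH controls were the highest of the listed genes after B2M, were not well above background on either MDAH control and on 1 of the 2 SKOV3 controls, so no fold is given.

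**Figure D4:**
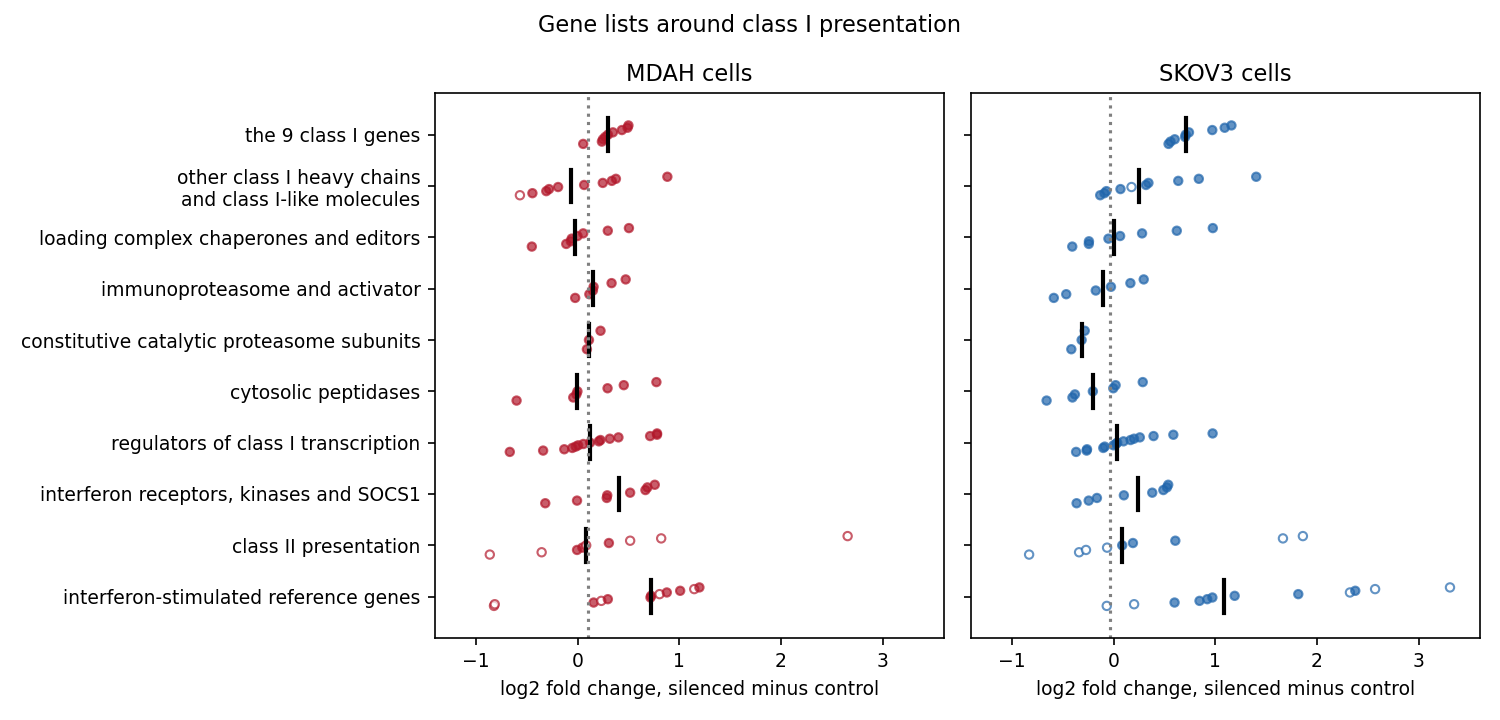
Log2 fold change of silenced over control cells (horizontal axis) for each tested gene of 10 gene lists around class I presentation, in MDAH (left) and SKOV3 cells (right), with a black bar at the median of each list and a dotted line at the median of all genes; open points are genes not well above background on all 8 arrays. The 9 class I genes have a median of 0.30 in MDAH and 0.71 in SKOV3 cells, and the interferon-stimulated reference genes have the highest medians of the lists, 0.72 and 1.08 with their 5 open points included.

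The genes whose line-centred values over the 8 arrays lay nearest to those of HLA-B, TAP1 and PSMB9 were mostly from outside the pathway. Nearest to HLA-B were APBA3, FBXO6 and SERINC5, with root mean square differences of 0.0708, 0.0765 and 0.0808, out of 15551 genes ranked. Nearest to TAP1 were ZBTB21 (0.0787), IFI30 (0.0882), the lysosomal thiol reductase that interferon-gamma raises, and CFAP91 (0.0935). Nearest to PSMB9 were HLA-J (0.107), EFNB1 (0.125) and CIMAP1A (0.127). Among the 9 genes, PSMB9 was the closest to TAP1 (rank 12 of all genes) and TAP1 the closest to PSMB9 (rank 6), at 0.135. The line-centred values of TAP1 itself varied by 0.451 and those of HLA-B by 0.218, as root mean squares over the 8 arrays.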

How the data were processed

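RNA of 8 samples was measured on single-colour Agilent arrays. Per the file headers, the authors let the Feature Extraction software (version 11.5.1.1, against 10.7.3.1 in the submitters' processing notes) subtract background, and deposited linear signal intensities, 1 per spot. The authors also deposited a log2 table, which equals quantile-normalized log2 signal minus each probe's median (lowest correlation with the rebuilt values 0.999999) and served as an alternative. Median pixel intensities, as deposited, served for normexp with an offset of 50, because mean intensities were not used here.

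Control spots and outlier spots (209 to 310 per array) were dropped, repeated spots of 1 probe averaged, and the 75th percentile of log2 signal was subtracted from each array. Of 30878 probes with a RefSeq accession 28174 were matched to genes of a RefSeq table. The brightest probe stood for a gene, and 15552 genes with both arrays of a group well above background were tested. limma 3.58.1 in R 4.3.3 was fitted to the 4 groups together (4 residual and 2.68 prior degrees of freedom), with Benjamini-Hochberg adjustment over all genes and a threshold of 0.05. Precision is limited by there being 2 arrays per group. A probe below this mark on both arrays of a group gives a bound instead of a fold, with its value on each such array replaced by the lowest signal that was well above background there, if that was higher.

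The 9 genes, the gene lists and the tests were chosen with earlier results of these data known. Every probe of the 9 genes is reported, as are the listed genes that passed in any contrast (the 3 highest and 3 lowest where over 6 passed) and the 3 genes nearest to HLA-B, TAP1 and PSMB9. HLA-J was named after its values were seen, beyond its place in that rule, as were listed genes given as not passing. Some listed genes enter the counts of their lists and are not reported here by name. Alternatives were other scalings, filters, probe choices and designs, leaving out each array, and, chosen after seeing the data, each probe alone, normexp on median pixels, a threshold of 0.1 and gene lists cut to genes well above background on all 8 arrays. No average over the lines is given for a gene below that mark in a whole group. No coordinates of the arrays are given, since their design uses hg19 and the RefSeq windows GRCh38.p14.

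On data simulated from these arrays with 200 genes of 15552 given a log2 change of 2, 88% were recovered in each line and 96.5% in the average, beside 10, 10 and 7 false calls, while 0 genes passed for a difference of the lines, which had been given equal changes. The 9 genes changed by at most 0.50 in MDAH and 1.16 in SKOV3 cells, and recovery of changes of that size was not simulated.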

Additional observations from a re-analysis of the deposited data

How the results depend on the processing

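The count of class I genes that passed after silencing depended on the setting. In SKOV3 cells it was 1, beside 65 of all 15552 genes that passed as higher. Brackets give such counts over all genes. The class I count became 2 with quantile normalization or the deposited table (57 with each), array weights (113) or the replicate block (255). It was also 2 with a filter for all 8 arrays well above background (65 of 12388). An adjusted p under 0.1 gave 3, where 569 of all genes passed in either direction. It was 3 with a mean-variance trend (127) and 9 with normexp (157). It was 0 with median centring, with no filter on dim probes, with only the 2 groups compared and with the methods' t-test, and 0 to 0 with each array left out. In the average of the lines it was 2, and became 4 with quantile normalization or the deposited table, 8 with normexp, a trend or an adjusted p under 0.1, 6 with the filter for all 8 arrays, 5 with the replicate block, and 0 to 3 with each array left out. It was 0 in MDAH cells and 0 for the difference between the lines under every alternative run, with 0 to 0 without 1 array. For the controls of the lines it was 6, and 4 to 6 without 1 array. Of all genes, 49 passed as higher in SKOV3 cells with median centring and 9 of 20503 with no filter. None did with only the 2 groups compared or with the t-test. In the average 307 of 15552 passed as higher, 293 with quantile normalization and 290 with the deposited table. These were 595 with normexp, 596 with a trend, 451 of 12388 with the filter for all 8 arrays and 678 with the replicate block. An adjusted p under 0.1 in the average was reached by 2251 of 15552 genes in either direction. The causes were not tested.

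HLA-B in MDAH cells turned to -0.12 with quantile normalization and the deposited table, -0.15 with normexp, -0.13 with the mean of its probes, -0.066 to 0.18 with each array left out and -0.32 on probe A_33_P3379947, which gave -0.12 in the average. TAPBP in MDAH cells turned to -0.055 on probe A_33_P3325914. The B2M difference between the lines turned to -0.046 with median centring and ran from -0.096 to 0.30 with each array left out, below 0 without MDAH control 1 or MDAH sh-SFPQ#3, and that of TAP2 to -0.42 with the mean of its probes, 1 of them dim. With median centring the control differences of HLA-B, HLA-C and HLA-E turned to 0.0047, 0.068 and 0.095. Median centring moved the MDAH median of all genes from 0.10 to 0.21. The median of the 9 genes lay 0.20 above it under both scalings, which had to be so, since each subtracts 1 value per array. That distance was 0.12 with quantile normalization or the deposited table, 0.15 with normexp and 0.24 with the mean of a gene's probes.

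The labels number controls and shRNAs alike in both lines. Over all 15552 genes, deviations of same-numbered arrays correlated at 0.0769 for the controls and 0.362 for the shRNAs, a hint of pairing for the latter. Among the 7 interferon-stimulated reference genes well above background on all 8 arrays, control 2 lay above control 1 for 7 in each line. Whether the controls were paired was not tested. With the replicate block PSMB9 passed in SKOV3 cells (adjusted p = 0.049), beside TAP1 (0.027).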

Other observations

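Class II genes near the class I genes were described apart. HLA-DMB, which edits class II peptides, read -2.40 and -1.52 in MDAH controls, 0.25 and 1.14 after silencing, a difference of 2.66 that did not pass (adjusted p = 0.0725 from limma); in SKOV3 cells its controls were not well above background and the silenced cells were at least 1.14-fold higher. HLA-DOA, an inhibitor of that editing, was well above background on 2 arrays, the MDAH controls, at least 1.08-fold over silenced MDAH cells. CD74, the class II invariant chain, was at least 12.8-fold lower in SKOV3 than in MDAH controls. KRT19, a keratin, was lower in SKOV3 controls by -4.75 (adjusted p = 5.79e-05). Of 9 class II genes tested 6 were higher in MDAH and 5 in SKOV3 cells, with medians of 0.09 and 0.08, but only 3 of the 9 were well above background on all 8 arrays.

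Of 122 other tested genes that lie between HLA-F and TAPBP in the RefSeq order, leaving out class I genes, 72 (59%) were higher after silencing in MDAH and 63 (51.6%) in SKOV3 cells, beside 59.8% and 46.2% of all genes. Their medians were 0.08 and 0.01. Of these 122 genes 0 passed as higher in MDAH and 3 in SKOV3 cells by limma, beside 0.424% and 0.418% of all genes. In the average of the lines 4 passed as higher and 3 as lower, beside 307 and 558 of all 15552 genes. BRD2, which lies between HLA-F and TAPBP, read 6.17 and 6.10 in SKOV3 controls and 6.26 and 6.28 after silencing.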
